A study of Mus musculus with 4 samples.

Results

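A stretch of mouse chromosome 4 from 20 to 27 Mb around the long noncoding RNA (lncRNA) gene Gm31145 was examined in embryonic stem cells with and without Snf2h. The stretch was taken as all windows of 100 kb, spaced 25 kb, that start from 20 Mb up to, but not at, 27 Mb of the GRCm38 assembly and have a value in every library. This gave 280 windows of the 109033 in the deposited table, of which 70 do not overlap each other. The stretch was selected on the difference in polarity between the genotypes, because windows near 23.2 Mb and from 23.8 to 24.0 Mb differed in opposite directions. All differences between the genotypes given here therefore describe the place that was picked and test nothing.

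The cells are mouse embryonic stem cells labelled 129S6/SvEvTac, grown in serum medium with LIF on gelatin. Wild-type (WT) cells gave 2 libraries, and cells labelled SNF2KO, called KO here, gave 2 more; in the latter, Snf2h, the ATPase of ISWI chromatin remodelling complexes, was knocked out. All 4 libraries share the line and the medium, and the labels name neither the deleted part of the gene nor the number of clones behind the knockout. Each genotype was cultured in duplicate. For WT replicate 2 the label and the column name give different index sequences. No window of the stretch lacked a value in any library. The SD of the profile over all autosomes was 14.6 and 12.8 points in WT replicates 1 and 2, and 19.5 and 14.5 points in KO replicates 1 and 2, so KO replicate 1 had the widest swings.

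TrAEL-seq captures free 3′ ends of DNA, many of which lie at replication forks, and the strand on which an end lies depends on the direction of the fork. Where forks leave a zone of initiation in opposite directions the strand balance changes abruptly from one sign to the other, and where converging forks meet it changes back, usually over a longer distance. Large intervals without active genes are often copied by forks that travel far from their origin, and ISWI remodelling ATPases space nucleosomes and help replication pass through compact chromatin. The deposited value, called polarity here, is the strand imbalance in percentage points between -50 and 50. Which strand counts as positive is not stated in the sources used here, so a rise is not named as initiation and a fall not as termination. The read depth behind the windows is unknown.

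The stretch holds 70 RefSeq genes, 20 of them protein-coding, 23 lncRNA genes and 22 pseudogenes. Its middle is a gap of 2.01 Mb between Pou3f2, which encodes a POU-domain transcription factor of neural cells, and Mms22l, which encodes a partner of Tonsl in the repair of stalled replication forks. Nothing protein-coding lies from 22488367 to 24496450. This gap ranks 77 by length among 18559 gaps between protein-coding genes on the autosomes, whose median is 16.1 kb. It holds 10 lncRNA genes, Gm31145 among them, and 4 pseudogenes.

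The 250 bases before the starts of 4 genes mark the places to which the results refer, as RefSeq gives them for GRCm38.p6. Pou3f2 and Mms22l flank the gap, Gm38450 starts where polarity was lower in KO, and Gm31145 starts where it was higher. Each sequence runs 5′ to 3′ on the strand of its gene, with every CG dinucleotide in capitals.
Pou3f2, minus strand, chr4:22488367-22488616: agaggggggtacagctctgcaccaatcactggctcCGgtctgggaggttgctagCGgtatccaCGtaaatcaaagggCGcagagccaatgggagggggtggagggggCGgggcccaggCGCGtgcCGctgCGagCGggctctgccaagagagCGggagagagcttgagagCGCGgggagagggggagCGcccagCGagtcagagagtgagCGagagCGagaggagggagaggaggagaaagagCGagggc
Gm38450, plus strand, chr4:23260534-23260783: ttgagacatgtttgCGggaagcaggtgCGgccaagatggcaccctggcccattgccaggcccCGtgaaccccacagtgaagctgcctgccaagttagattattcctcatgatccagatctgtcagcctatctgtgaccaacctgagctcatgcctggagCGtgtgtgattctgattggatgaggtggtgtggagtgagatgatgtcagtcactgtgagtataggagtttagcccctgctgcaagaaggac
Gm31145, minus strand, chr4:23835053-23835302: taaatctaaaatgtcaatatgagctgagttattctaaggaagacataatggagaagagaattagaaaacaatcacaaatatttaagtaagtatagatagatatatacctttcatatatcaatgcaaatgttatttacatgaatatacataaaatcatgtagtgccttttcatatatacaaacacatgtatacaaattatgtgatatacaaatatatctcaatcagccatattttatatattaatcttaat
Mms22l, plus strand, chr4:24496201-24496450: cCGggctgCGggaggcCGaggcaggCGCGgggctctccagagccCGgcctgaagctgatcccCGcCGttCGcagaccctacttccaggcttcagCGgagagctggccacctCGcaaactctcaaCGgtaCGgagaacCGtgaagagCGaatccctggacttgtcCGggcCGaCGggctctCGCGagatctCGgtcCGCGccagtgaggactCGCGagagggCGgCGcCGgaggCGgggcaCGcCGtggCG

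These 4 sequences differ in their content of CG. Mms22l has 32 CG dinucleotides and 70.8% G and C, and 4.74% of the 31396 autosomal promoter sequences in the table have at least as many CG. Pou3f2 has 18 CG and 66.8% G and C, with 22.2% of promoters at or above it. Gm38450 has 4 CG and 53.6% G and C, and 62.7% of promoters have at least as many. Gm31145 has 0 CG and 23.2% G and C, and the second start listed for it, 11 kb further along the gene, also has 0 CG. The lncRNA gene Gm30731, which starts beside Pou3f2 at the edge of the gap, has 17 CG. The median over all promoters is 6 CG. The polarity windows are far longer than a promoter and do not resolve one.

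The WT profile of the stretch was a series of alternating rises and falls that both libraries drew alike. Pearson's r over the 280 windows, which overlap and are not independent, was 0.940 for the WT pair and 0.907 for the KO pair. For a KO library with a WT library r lay from 0.736 to 0.770, lower than the 0.864 to 0.917 of the same pairs over all autosomal windows. Over the 202 windows that lie wholly outside 22900001 to 24775000, r between genotypes was 0.841 to 0.932. That interval was drawn around runs in which KO departed from WT, and it holds the windows that led to the choice of the stretch. The higher r outside it follows from how it was drawn and does not show where the departure mainly lay.

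**Figure D1:**
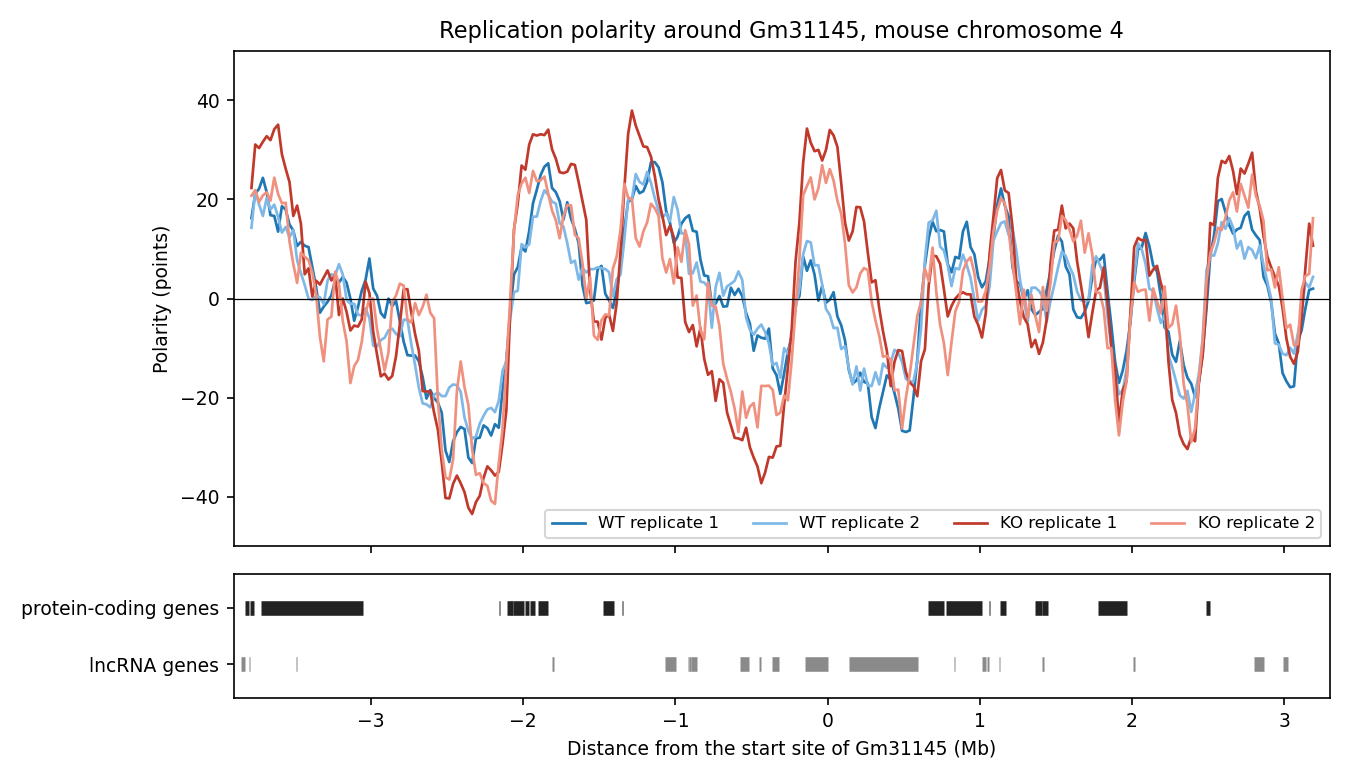
Polarity in points (vertical axis) of 280 overlapping windows of 100 kb against the distance of each window's midpoint from the start site of Gm31145 in Mb (horizontal axis), 1 line per library, with protein-coding and lncRNA genes drawn as bars below. The KO lines run below the WT lines just left of Gm31145 and above them over and to the right of it, with Pearson's r of 0.940 for the WT pair of lines and 0.907 for the KO pair.

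The window from 23200001 to 23300000 had the largest negative difference. Polarity there was 1.98 and 5.48 points in WT replicates 1 and 2, and -28.2 and -26.9 points in KO replicates 1 and 2. Both WT libraries were just above 0 and both KO libraries far below it, a difference of -31.3 points against a pooled replicate SD of 1.87 points (n = 2 each). The window holds the start of Gm38450, a lncRNA gene of 55.4 kb.

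The negative difference extended to both sides of that window. KO lay below WT in both replicates in 20 consecutive windows from 23.05 to 23.625 Mb, a run of 575 kb. Its mean was -6.04 and -4.09 points in WT, against -27.03 and -18.7 points in KO, so the means differed by -17.8 points (pooled SD 4.28, n = 2 each). Of the run's windows that do not overlap, those that start at 23.3, 23.4 and 23.1 Mb differed by -17.7, -17.2 and -14.6 points and came next in size after that at 23.2 Mb. The window from 23.4 Mb had -6.06 and -9.09 points in WT, against -31.95 and -17.6 points in KO (pooled SD 7.35), and its difference was -9.99 points without KO replicate 1. Overlapping neighbours of the window at 23.2 Mb differed by up to -27.3 points (start 23.175 Mb). Of the lncRNA genes in the run, Gm38450 averaged -1.66 points in WT, against -25.7 points in KO, and Gm11884 averaged -7.42 and -27.6 points. Gm31085 averaged -12.2 and -25.0 points. Every window that overlaps these 3 genes belongs to the run, so KO lay below WT there by definition.

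Right of the run the sign of the difference turned. KO lay above WT in both replicates in 24 consecutive windows from 23600001 to 24275000, a run of 675 kb. Its mean was -7.97 and -6.63 points in WT, against 18.2 and 10.6 points in KO, so the means differed by 21.7 points (pooled SD 3.88, n = 2 each). The difference was largest in the window from 23800001 to 23900000, which holds the start of Gm31145. There polarity was -0.228 and -3.29 points in WT, close to 0, and 34.0 and 26.1 points in KO, so the means differed by 31.8 points (pooled SD 4.24).

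The higher run had a shoulder at 24.0 Mb. The window from 24000001 to 24100000 had -14.9 and -18.5 points in WT, against 18.4 and 5.06 points in KO, so the means differed by 28.5 points (pooled SD 6.92). All WT values were below 0 and all KO values above it, although the KO libraries lay far apart. Among windows that do not overlap, those from 23.9, 24.1 and 23.7 Mb followed with 22.2, 20.1 and 19.1 points. Averaged over the windows that overlap Gm31145, polarity was 2.94 and 3.87 points in WT, against 29.3 and 21.8 points in KO. All 10 windows belong to the higher run, so KO lay above WT in each by definition. Gm27243, a lncRNA gene of 456 kb that fills most of the interval up to Mms22l, averaged -15.1 points in WT, against -3.93 points in KO, with KO above WT in 12 of 22 windows and below it in 1.

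The difference between the means of both runs was -1.93 and -2.54 points in WT, so the WT means were nearly level. In KO it was 45.2 and 29.3 points, and the genotypes differed by 39.5 points (pooled SD 7.99, n = 2 each). After each library was divided by its own SD and brought back to the mean SD of the libraries, the values were -2.03 and -3.04 points in WT, against 35.7 and 30.9 points in KO. The KO libraries lay closer to each other on that scale, and differed from WT by 35.9 points (pooled SD 2.44).

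**Figure D2:**
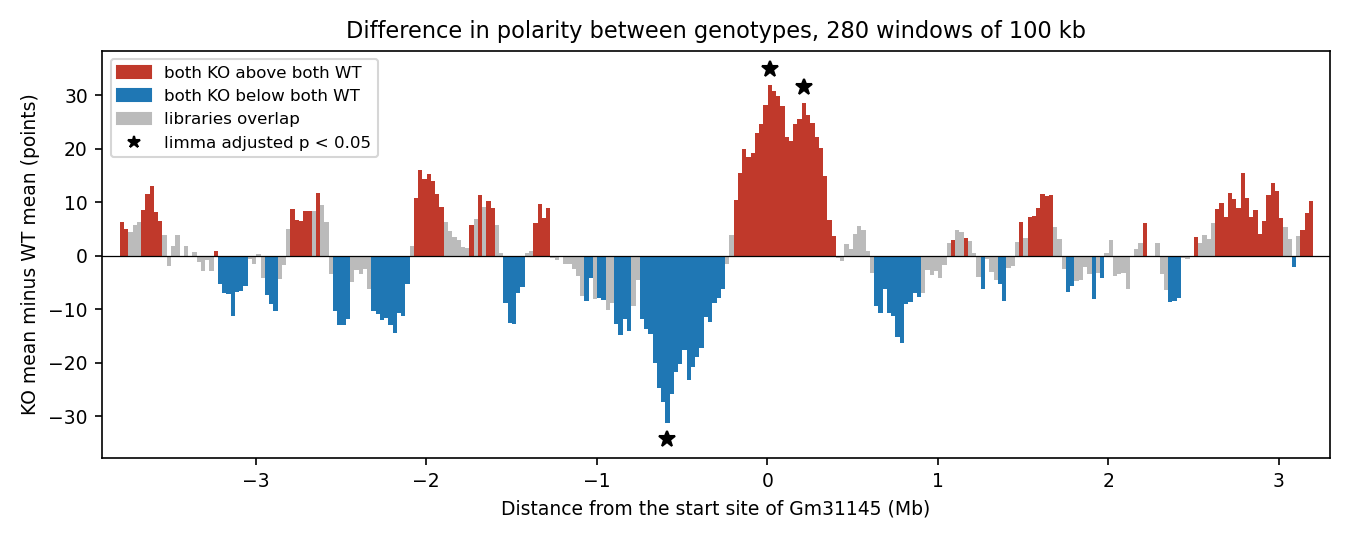
KO mean minus WT mean of polarity in points (vertical axis) in each of 280 windows of 100 kb, against the distance of the window's midpoint from the start site of Gm31145 in Mb. Bar colour shows whether the KO pair lay wholly above or below the WT pair, and stars mark the 3 non-overlapping windows with an adjusted p-value under 0.05 in limma. The longest blue run has a mean of -17.8 points and the longest red run, right of it, a mean of 21.7 points.

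KO lay wholly above or below WT in 161 of the 280 windows (57.5%), higher in 83 and lower in 78. Over all 94694 autosomal windows the share was 44.6%, with 22.2% higher and 22.5% lower. Of the 70 windows that do not overlap, 38 were separated (54.3%, against 44.7% of 23672). In limma, fitted over those 23672 windows, 13 had a Benjamini-Hochberg adjusted p-value under 0.05 (0.0549%). Of these, 3 lay in the stretch, the windows from 23.8 and 24.0 Mb, higher in KO (background 0.0338%), and that from 23.2 Mb, lower in KO (background 0.0211%). Since this contrast chose the stretch, nothing is read from these counts. The 3 calls became 2 without WT replicate 1 (0.0338% of all windows called), 0 without WT replicate 2 (0.0296%), 11 without KO replicate 1 (5.79%) and 29 without KO replicate 2 (20.2%), and 0 on an atanh scale, where 0 windows were called anywhere. A fit without a library leaves its genotype with a single library, which is assumed to vary like the pair of the other genotype. In the fits with 0 calls in the stretch, 11 of its 70 windows without WT replicate 2 (697 of all, 2.94%) and 21 on the atanh scale (2655 of all, 11.2%) had an unadjusted p-value under 0.05 in limma. With the 4 libraries standardised, 5 windows were called (0.372% of all).

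Of the 76 windows wholly inside the gap, 53 were separated (69.7%), against 102 of the 196 wholly outside it (52.0%). The mean absolute difference was 13.9 points inside and 6.25 points outside, and 5.18 points over all autosomal windows. The runs of 20 and 24 separated windows, which hold the windows that led to the choice of the stretch, lie wholly inside the gap. The contrast between inside and outside thus partly restates that choice, and nothing is read from it. Beside the runs that meet near the crossing, 6 more runs of at least 6 separated windows were found, 3 higher and 3 lower in KO. The stretch thus held 8 such runs, and the 2063 runs on the autosomes come to 6.1 for every 280 windows. Of the 6, the run from 20.575 to 20.825 Mb lies at the end of Nkain3. Its means were 0.895 and 0.401 points in WT, against -3.97 and -8.86 points in KO. The genotypes differed there by -7.06 points (pooled SD 2.46). The run from 25.325 to 25.55 Mb, right of Ufl1, was higher in KO by 9.61 points (pooled SD 1.86).

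The boundaries of the change were read from the profile after a running mean of 5 windows. Polarity passed from negative to positive at 23.64 Mb in both WT libraries and at 23.61 and 23.63 Mb in KO replicates 1 and 2. The crossing thus lay at nearly the same place in all libraries. The positive stretch after it ended at 23.84 and 23.82 Mb in WT, and at 24.16 and 24.12 Mb in KO. Its length was 203 and 186 kb in WT, against 550 and 495 kb in KO. The negative stretch before it began at 23.26 and 23.28 Mb in WT and at 22.89 and 22.97 Mb in KO, and was 382 and 355 kb long in WT, against 721 and 659 kb long in KO. Its lowest point was -14.9 and -12.7 points in WT, against -34.1 and -22.7 points in KO. The highest point of the positive stretch was 5.41 and 9.06 points in WT, against 31.1 and 24.5 points in KO. Both groups of lengths and both sets of extremes were separated.

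Rises and falls were then compared over segments called on the mean profile of the 4 libraries, between a local extremum of the running mean and the next, where the change was at least 1 SD. There were 9 rises and 9 falls. The rise from 23475000 to 23725000, in the gap, was 17.8 and 20.7 points high in WT and 62.3 and 42.1 points high in KO. The KO mean of 52.2 points exceeded the WT mean of 19.3 points by 32.9 points (pooled SD 10.2, n = 2 each). In units of the SD of each library, the heights were 1.22 and 1.61 in WT, against 3.20 and 2.90 in KO. This rise overlaps the far end of Gm31145 and part of Gm31085, and neither a protein-coding gene nor a start in the promoter table lies in it.

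The neighbouring rise at the right flank of the gap went the other way. From 24350000 to 24550000, across the start of Mms22l, polarity rose by 38.2 and 28.5 points in WT, against 19.8 and 18.0 points in KO. The groups did not overlap, and the difference was -14.4 points (pooled SD 4.95, n = 2 each), or -9.56 points without WT replicate 1. The scaled heights were 2.61 and 2.22 SD in WT, against 1.02 and 1.24 SD in KO. Over the windows that overlap Mms22l, polarity averaged 9.66 and 8.90 points in WT, against 0.0830 and -2.003 points in KO. KO lay below WT in 8 of its 9 windows. Klhl32, a kelch-like gene downstream of it, averaged 6.36 points in WT, against -0.420 points in KO, with KO below WT in 7 of 14 windows. A lower run from 24425001 to 24775000 lies across both genes, with a mean difference of -10.2 points (pooled SD 1.47).

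The other 7 rises had mean differences from 0.382 to 15.4 points, all higher in the KO mean, or from -0.307 to 0.266 SD after scaling, with signs both ways. The median difference of all 2455 autosomal rises called in the same way was 6.16 points. Of the 9 rises in the stretch, 3 were higher in both KO libraries than in both WT libraries, those at Ccnc, at Gm31145 and at Manea, and 1 was lower, that at Mms22l. Of the autosomal rises, 40.9% were higher and 6.8% lower in this sense. In units of the SD of each library, 3 rises of the stretch were higher and 3 lower in both KO libraries, against 24.4% and 26.8% of the autosomal rises. The rise at Gm31145 and that at Mms22l were the rises whose scaled height differed by more than 1 SD, by 1.63 and -1.29 SD.

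**Figure D3:**
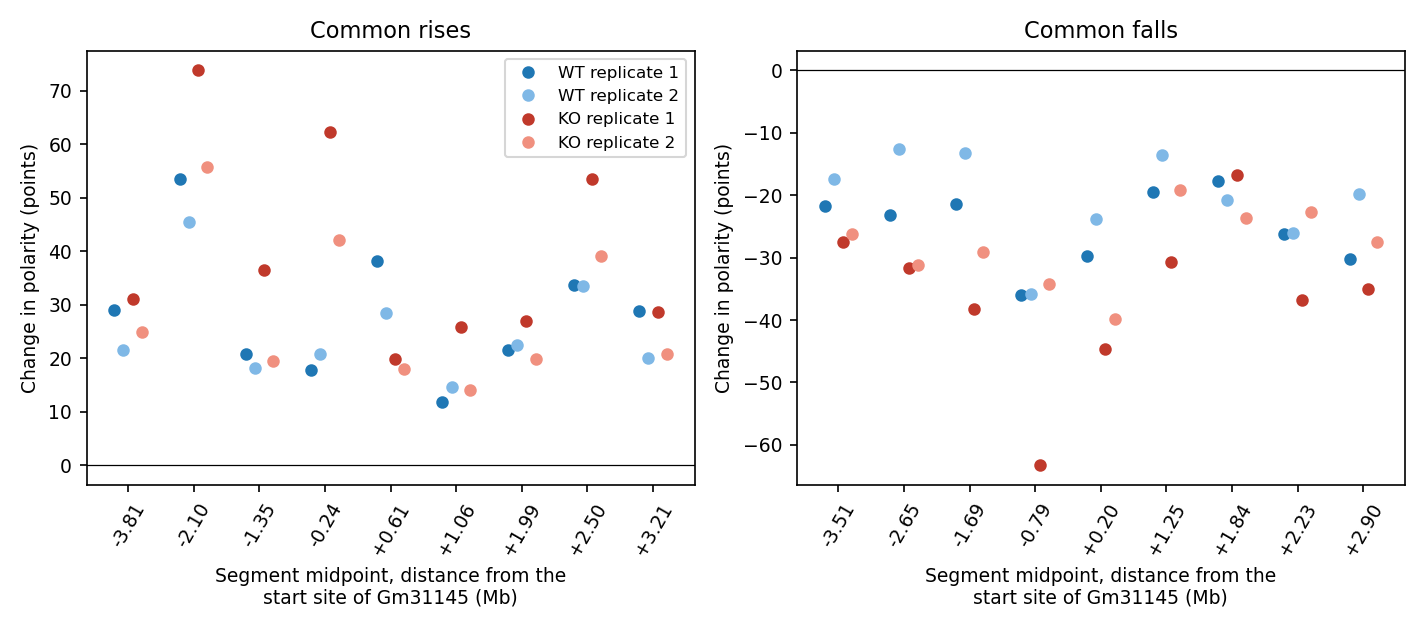
Change in polarity in points (vertical axis) over each of 9 rises (left) and 9 falls (right) called on the mean profile, with 1 point per library, ordered by the distance of the segment's midpoint from the start site of Gm31145 in Mb. The rise just left of Gm31145 stands at 17.8 and 20.7 points in WT, against 62.3 and 42.1 points in KO, and the next rise to the right at 38.2 and 28.5 points in WT, against 19.8 and 18.0 points in KO.

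The falls on either side of the enlarged rise were not alike. Right of it, from 23725000 to 24350000, polarity changed by -29.7 and -23.7 points in WT, against -44.6 and -39.9 points in KO, and the groups did not overlap. Left of it, from 22625000 to 23475000, polarity changed by -35.9 and -35.8 points in WT, against -63.3 points in KO replicate 1, but by only -34.2 points in KO replicate 2. That difference of -12.9 points was below its pooled SD of 14.5 points and rests on KO replicate 1. All 9 falls were larger in the KO mean, with 4 of them larger in both KO libraries than in both WT libraries (39.3% of autosomal falls). In units of the SD of each library, 7 of the 9 were larger in the KO mean and 3 in both KO libraries (18.7% of autosomal falls), with differences from -0.740 to 0.182 SD. Across the autosomes the median fall of 2437 segments was -24.5 points in WT, against -29.0 points in KO.

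Left of the gap lies a cluster of protein-coding genes with the highest rise of the stretch. From 21.525 to 21.95 Mb, polarity rose by 53.4 and 45.4 points in WT, against 73.8 and 55.8 points in KO, so the means differed by 15.4 points (pooled SD 9.84), or by 3.4 points after standardising. Without KO replicate 1 the difference was 6.38 points, and without KO replicate 2 it was 24.4 points. The scaled heights were 3.65 and 3.54 SD in WT, and 3.79 and 3.84 SD in KO. The rise spans 7 protein-coding genes. Prdm13, a zinc finger regulator of neural development, lay before the crossing at -20.5 and -17.7 points in WT, against -30.6 and -28.5 points in KO, with KO below WT in all 4 of its windows. Ccnc, the cyclin of the Mediator kinase module, averaged -5.06 points in WT, against -2.66 points in KO and lay at the crossing. Tstd3, which encodes a protein with a rhodanese-like domain, averaged -2.20 points in WT, against 3.61 points in KO. Usp45, a deubiquitinase, averaged 3.44 and 13.0 points, with KO above WT in 5 of 7 windows and below it in 1.

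Further right in that cluster polarity was positive in every library. Pnisr, which encodes a nuclear protein rich in serine and arginine, averaged 13.5 and 11.2 points in WT, against 28.2 and 23.2 points in KO. Coq3, a methyltransferase of coenzyme Q synthesis, averaged 16.3 points in WT, against 27.5 points in KO. Faxc averaged 21.3 and 26.95 points, and KO lay above WT in only 2 of its 7 windows. A lower run from 21.475 to 21.775 Mb and a higher run from 21.725 to 21.975 Mb flanked the crossing, with mean differences of -11.1 points (pooled SD 1.50) and 13.0 points (pooled SD 2.50). On the deposited scale KO was thus lower before this crossing and higher after it, as at Gm31145 but by less. After standardising, the rise here differed by 3.4 points, against 25.1 points for the rise at Gm31145. The largest negative difference outside the gap among windows that do not overlap was at 21.6 Mb, where polarity was -25.3 and -22.9 points in WT, against -35.7 and -41.4 points in KO. After standardising, that difference went from -14.4 points (pooled SD 3.10) to -8.98 points (pooled SD 7.80). The scaled values were -1.73 and -1.79 SD in WT, against -1.84 SD in KO replicate 1 and -2.85 SD in KO replicate 2, so the scaled difference rests mainly on KO replicate 2.

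At the left flank of the gap, the rise from 22.35 to 22.625 Mb covers Fbxl4, an F-box gene that controls mitophagy, and Pou3f2. It was 20.8 and 18.2 points high in WT and 36.5 and 19.5 points in KO, so KO replicate 2 lay within the WT range. Fbxl4 averaged 3.74 points in WT, against -0.629 points in KO. Pou3f2 averaged 10.4 and 10.2 points in WT, against 16.0 and 16.5 points in KO.

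Right of Mms22l, the rise from 24.825 to 24.975 Mb, at Klhl32, Ndufaf4, an assembly factor of respiratory complex I, and Gpr63, a G protein-coupled receptor gene, was 11.9 and 14.6 points in WT, against 25.7 and 14.1 points in KO, and the groups overlapped. Ufl1, the ligase that attaches the ubiquitin-like UFM1, averaged 1.46 and 0.260 points in WT, against -1.99 and 0.680 points in KO, with overlap. The higher run right of Ufl1 holds the window from 25.4 Mb, with -2.20 and 4.76 points in WT, against 14.2 and 11.5 points in KO. Fhl5, a LIM-domain gene, averaged -1.14 and -0.527 points in WT, against -7.94 and -2.27 points in KO. Fut9, a fucosyltransferase that makes the Lewis x antigen, averaged -3.53 points in WT, against -7.01 points in KO, with KO below WT in 4 of 12 windows. The rise from 25.75 to 25.9 Mb, which overlaps the end of Fut9 and the lncRNA gene Gm42263, was 21.5 and 22.4 points in WT, with KO replicate 2 below both at 19.9 points and KO replicate 1 above both.

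Near the right end, the rise from 26.225 to 26.45 Mb covers Manea, an endomannosidase of the Golgi. It was 33.7 and 33.5 points in WT, against 53.5 and 39.1 points in KO, so the means differed by 12.7 points (pooled SD 7.17), or by 4.08 points after standardising. Leaving out KO replicate 1 gave 5.55 points, and leaving out KO replicate 2 gave 19.9 points. Manea itself averaged close to 0 in every library, between -1.68 and 0.221 points. A higher run of 16 windows from 26.425 to 26.9 Mb followed, with 5.45 and 4.28 points in WT, against 15.5 and 13.5 points in KO. Its window from 26.575 Mb differed by 15.4 points (pooled SD 3.03). The run covers the lncRNA gene 4930548K13Rik, where KO was above WT in all 7 windows.

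At the left end lie Ttpa, the transfer protein of vitamin E, and Ggh, a hydrolase of folate polyglutamates. Ttpa averaged 18.7 and 18.0 points in WT, against 26.7 and 21.3 points in KO. Ggh averaged 19.9 and 18.3 points in WT, against 27.9 and 20.7 points in KO. Nkain3, which encodes a membrane partner of the sodium pump and spans 670 kb, averaged 7.75 points in WT, against 8.42 points in KO, with KO above WT in 7 and below it in 7 of 31 windows. The nearest windows outside the stretch, to its left and right, differed by 2.82 and 1.29 points, and the first and last window inside it by 6.27 and 10.25 points.

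The positions of gene starts in the profile were not used to pick the stretch. RefSeq promoters were matched for 31 of the 70 genes, 14 of the 20 protein-coding and 17 of the 23 lncRNA genes. Of the 14 protein-coding starts, 12 lay inside a rise and 0 inside a fall, whereas rises covered 28.3% and falls 50.5% of the stretch. Those of Prdm13, Ccnc, Usp45, Coq3 and Faxc share a single rise. The share of autosomal protein-coding starts inside rises was not counted, so whether this is usual cannot be told. A step across each start was taken as the 100 kb window after it, along the chromosome, minus the 100 kb window before it, on the nearest 25 kb grid point. In the WT mean it was above 0 at 13 of the 14 protein-coding starts, with a median of 12.1 points, and in the KO mean at all 14, with a median of 15.7 points. Over 15997 autosomal protein-coding starts it was above 0 at 62.5% in WT and 63.1% in KO, with medians of 3.80 and 4.65 points. Several of the 14 starts are neighbours and share sequence in their windows, so they are not independent, and no test was made.

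The step was largest in WT at Ccnc, with 30.9 and 21.9 points, followed by Manea with 30.4 and 19.3 points and Usp45 with 22.7 and 23.7 points. In KO the steps were 48.9 and 46.8 points at Ccnc, 35.9 and 22.8 points at Manea and 49.4 and 36.4 points at Usp45. The groups were separated at Ccnc and Usp45 and overlapped at Manea. Of the 14 protein-coding starts, 5 had a step higher in both KO libraries than in both WT libraries (Ccnc, Usp45, Fbxl4, Ndufaf4 and Ufl1) and 1 a lower step, against 24.1% and 16.6% of autosomal protein-coding starts. The step at Ufl1 was 12.4 and 1.20 points in WT, against 24.9 and 18.1 points in KO. At Faxc the groups were separated the other way, with steps of 13.0 and 10.9 points in WT, against 1.91 and 3.304 points in KO, so the means differed by -9.32 points (pooled SD 1.25). The step at Mms22l was 14.3 and 23.63 points in WT, against 21.2 and 1.93 points in KO, with overlap. At the 17 lncRNA starts the median step of the WT mean was -3.30 points, with 8 above 0, and that of the KO mean 1.83 points, with 9 above 0. Over 9160 autosomal lncRNA starts the medians were 1.14 and 1.15 points, with 54.2% and 53.8% above 0. Inside the gap, Gm42262, Gm52715, 1700025O08Rik, Gm30886 and Gm38450 had WT steps from -9.03 to -3.30 points, Gm11884 had 1.33 points, and Gm30731, which shares its windows with Pou3f2, had 17.2 points. At Gm31145 the step was 1.70 and -12.7 points in WT, against 2.91 and 1.59 points in KO.

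**Figure D4:**
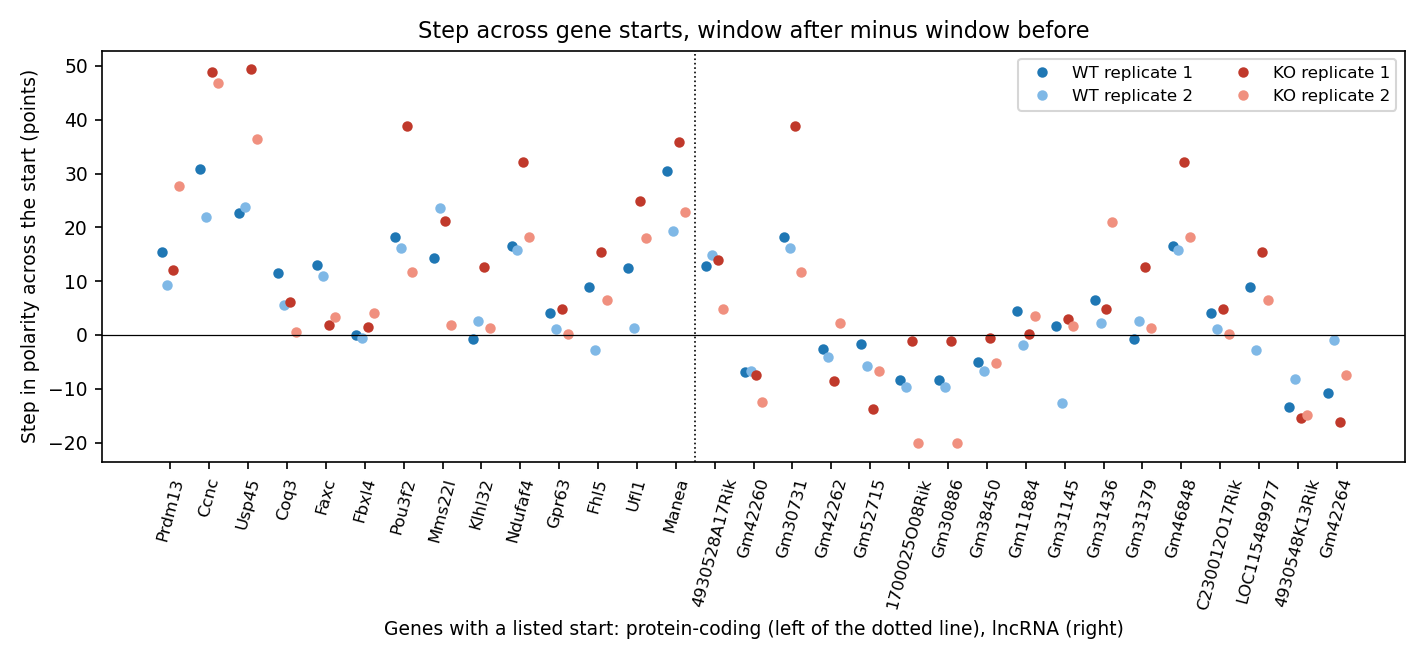
Step in polarity in points across each gene start (vertical axis), the 100 kb window after the start minus the window before it, for 14 protein-coding genes left of the dotted line and 17 lncRNA genes right of it, with 1 point per library. Most protein-coding starts lie above 0, with 30.9 and 21.9 points in WT at Ccnc, and the median of the WT means is 12.1 points against -3.30 points for lncRNA starts.

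The amplitude of the stretch was set beside that of the autosomes, where the SD of KO replicate 2 lay between those of the WT libraries. The SD of polarity over the 280 windows was 14.2 and 12.4 points in WT, against 20.5 and 15.5 points in KO, so the means differed by 4.70 points (pooled SD 2.64). The difference was 2.21 points without KO replicate 1 and 7.18 points without KO replicate 2. Divided by the autosomal SD of the same library it was 0.970 and 0.964 in WT, against 1.05 and 1.07 in KO. Relative to the autosomes, both KO libraries swung more widely in the stretch than both WT libraries did. The 280 windows include those that led to the choice of the stretch, so nothing is read from this difference. Mean polarity was close to 0, with 0.633 and 0.160 points in WT, against 1.29 and 0.565 points in KO. The number of rises called in each library separately was 8 and 9 in WT, against 9 and 7 in KO, and the number of falls 10 and 11 in WT, against 8 and 11 in KO, both with overlap.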

How the data were processed

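TrAEL-seq libraries were compared as 2 WT against 2 KO, with groups and replicate numbers from the labels. Per the submitters' processing notes and the file headers, the authors used Trim Galore 0.6.5 and Bowtie2 2.4.1 on GRCm38 with an rRNA sequence, and deduplicated each library. The deposited value is a score, the signed strand imbalance per window, bounded at -50 and 50 points; how it was computed is not given in the sources used here, and the table holds no counts, so depth is unknown. Windows of full length on 19 autosomes with a value in all libraries were used.

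Windows spaced 100 kb were fitted with limma 3.58.1 in R 4.3.3 (lmFit, eBayes), with Benjamini-Hochberg adjustment over 23672 windows. With 2 against 2 libraries, no exact permutation test can give a p-value under 0.333, and none was run. SDs cover the spread between the libraries of a genotype. Rises and falls were found after smoothing over 5 windows, by a procedure tested on simulated profiles, as was the limma fit. The text names the 5 windows of largest gain and the 5 of largest loss among separated windows that do not overlap, those called by limma, the ends of runs of at least 6 separated windows, the border windows and the local extremes. All protein-coding genes of the stretch, and every gene at the runs, were eligible. The deviations of same-numbered libraries correlated at 0.241 as deposited and at 0.0158 after standardising, and the numbers name replicates only. Genes and promoters are RefSeq's for GRCm38.p6. Members, lists and tests were chosen with earlier results of these data known. Python 3.11.15, numpy 2.4.6, pandas 2.3.3 and matplotlib 3.10.9 were used.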

Additional observations from a re-analysis of the deposited data

How the results depend on the processing

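Lengths of the positive and negative stretch and the alternatives for named windows and rises were added after seeing the data. The differences of the lower run, the higher run and the step kept their sign under every alternative tried. They were -17.7, 22.0 and 39.8 points on windows spaced 100 kb, -14.9, 20.9 and 35.9 points after standardising. Without a library each they lay from -22.0 to -13.6, from 17.9 to 25.5 and from 31.5 to 47.5 points. With the replicate block they were -17.8, 21.7 and 39.5 points. With 2 libraries a genotype, omission of a library cannot move a difference by more than the pooled SD and the block cannot move it at all, so neither shows stability. The share of separated windows was 54.3% on windows spaced 100 kb and 59.6% after standardising, where it was 45.0% over the autosomes.

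The number of limma calls depended most on the processing. Against 13 over the autosomes and 3 in the stretch, it was 72 and 13 on all overlapping windows, 88 and 5 after standardising, 630 and 11 with the replicate block, 856 and 12 with the block and standardising, and 54 and 4 at an adjusted p-value under 0.1. On the atanh scale limma called 0 and 0, with 2655 windows, 21 of them in the stretch, at an unadjusted p-value under 0.05. Without a library each, in fits that take the spread from a single pair of libraries, the counts lay from 7 to 4790 and from 0 to 29, both highest without KO replicate 2. The cause was not tested.

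The difference in the SD of polarity was 0.0921 after standardising, where the unit becomes the autosomal SD, and 2.21 to 7.18 points without a library each. The difference in rises, -0.5, was 1.5 with a running mean of 3 windows and 1.5 with a minimum of 0.5 SD, and -1.5 to 0.5 without a library each. For falls, -1.0 became 3.0 and 1.5 with running means of 3 and 9 windows and 2.5 with a minimum of 15 points, and lay from -2.5 to 0.5 without a library each. The length difference of the negative stretch, 322 kb, was 284 and 227 kb with running means of 3 and 9 windows. Depth limits every window, by an amount that cannot be given without counts.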

Other observations

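KO replicate 2 stood apart from the other libraries near 21.2 Mb, in an interval with no protein-coding gene. In the window from 21150001 to 21250000 it had 0.794 points, against -18.8 points in KO replicate 1 and -20.2 and -21.3 points in WT. The difference of 11.8 points between the genotype means there rests on that library.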
